A study of Mus musculus with 3 samples.

Results

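The genes described here are the mouse protein-coding genes whose symbols begin with Kcn, the root given to potassium channel subunits, with Kcnj13 left out. They numbered 93 of the 22046 protein-coding genes in the deposited table of hippocampal RNA levels. By symbol they comprised 40 pore-forming subunits of voltage-gated channels, 13 auxiliary subunits of those channels, 14 inward rectifiers, 14 two-pore channels and 9 subunits of calcium-activated channels. A further 3 genes of the Slo family, Kcnt1, Kcnt2 and Kcnu1, were kept apart. RNA came from the hippocampus of 10-month-old C57BL/6 mice of 3 genotypes, WT, PS19 and PS19 Zbp1+-. The PS19 line expresses mutant human tau from the mouse prion protein promoter and is used as a model of tau pathology. Animals labelled PS19 Zbp1+- carry that transgene and are heterozygous for Zbp1, which encodes a sensor of left-handed nucleic acids. Each genotype was 1 library, and the labels give neither the sex of the animals nor how many were pooled. No difference below therefore has a replicate check, no test of the genotypes was possible, and intervals cover counting error only. Where 3 values of a gene stand together they follow the order WT, PS19, PS19 Zbp1+-.

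Potassium channels let potassium ions leave or enter a cell down their electrochemical gradient, and so set the resting potential, the threshold for firing and the shape of the action potential. Voltage-gated channels open on depolarisation. Calcium-activated channels follow intracellular calcium. Two-pore channels carry a steady leak current, and inward rectifiers hold the membrane near rest or, in astrocytes, take up potassium released by active neurons. In the hippocampus the dendrites, axons and axon terminals of pyramidal neurons, granule cells and interneurons each use a different set of these subunits.

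Some facts of the 3 libraries bear on the values that follow. Whole reads recovered from the deposited values summed to between 16400328 and 17109734 per library. Zbp1 had 5, 91 and 0 reads, and the 0 does not tell a heterozygote from an animal without the gene. Reads of the X inactivation transcript Xist numbered 11062, 13350 and 0, and those of the Y-linked Ddx3y 0, 0 and 711, so sex and genotype cannot be told apart in comparisons with PS19 Zbp1+-. Of 357 genes with 8 to 12 reads in both other libraries, 57 had no read in PS19 Zbp1+-, a share of 16% (exact 95% interval 12.3% to 20.2%), against 0.41% to 2.14% for the other libraries. The intervals given below do not include this. Neuronal markers were abundant in all libraries, with a summed level of 590, 504 and 684 FPKM (reads relative to gene length and library size) for Rbfox3, Snap25, Syt1, Tubb3 and Map2. None of the cell type markers summed here or below was at 0 reads in any library.

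Of the 93 genes, 69 reached an FPKM of 1 in at least 1 library and 24 did not. Nearest to this limit were Kcna5 and Kcnh4 above it, from 50 reads in PS19 and 67 in PS19 Zbp1+-, and Kcng3 and Kcnh5 below it, with a highest FPKM of 0.998 and 0.996. Kcnj1, Kcnk16 and Kcne1, best known from kidney, pancreas and heart, had no read in any library, which a count of 0 allows only up to about 3 reads per library. The subunit with the highest level was Kcnab2, a cytoplasmic beta subunit of Kv1 channels, with an FPKM of 124, 119 and 155. Next was Kcnip2, a calcium-binding partner of Kv4 channels, with 65.2, 44.2 and 55. Kcnc4, of axon terminals, and Kcnh3, of the forebrain, were among the pore-forming subunits with the highest mean level. The inward rectifiers were led by Kcnj4, Kcnj10 and Kcnj9, the two-pore channels by Kcnk1, Kcnk12 and Kcnk2, and the calcium-activated class by Kcnma1, Kcnn2 and Kcnn1. Voltage-gated pore-forming genes made up 39.7%, 41.4% and 46.6% of the summed FPKM of all 93 genes, and their auxiliary subunits 32.1%, 29.3% and 26.4%. Inward rectifiers made up 14.7%, 16.1% and 13.5%, two-pore channels 8.78%, 8.41% and 8.16%, and calcium-activated channels 3.12%, 3.45% and 3.84%. The sum over all 93 genes was 825, 823 and 1037 FPKM. From PS19 to PS19 Zbp1+- this was a ratio of 1.26 as deposited, 1.11 with libraries scaled by their total reads and 1.03 with libraries rescaled to the same sum (TPM). For the pore-forming class alone the ratios were 1.42, 1.24 and 1.16, for the auxiliary class 1.14, 0.999 and 0.934, and for the inward rectifiers 1.05, 0.924 and 0.863, so that the direction depended on the scaling for both the auxiliary class and the inward rectifiers.

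**Figure D1:**
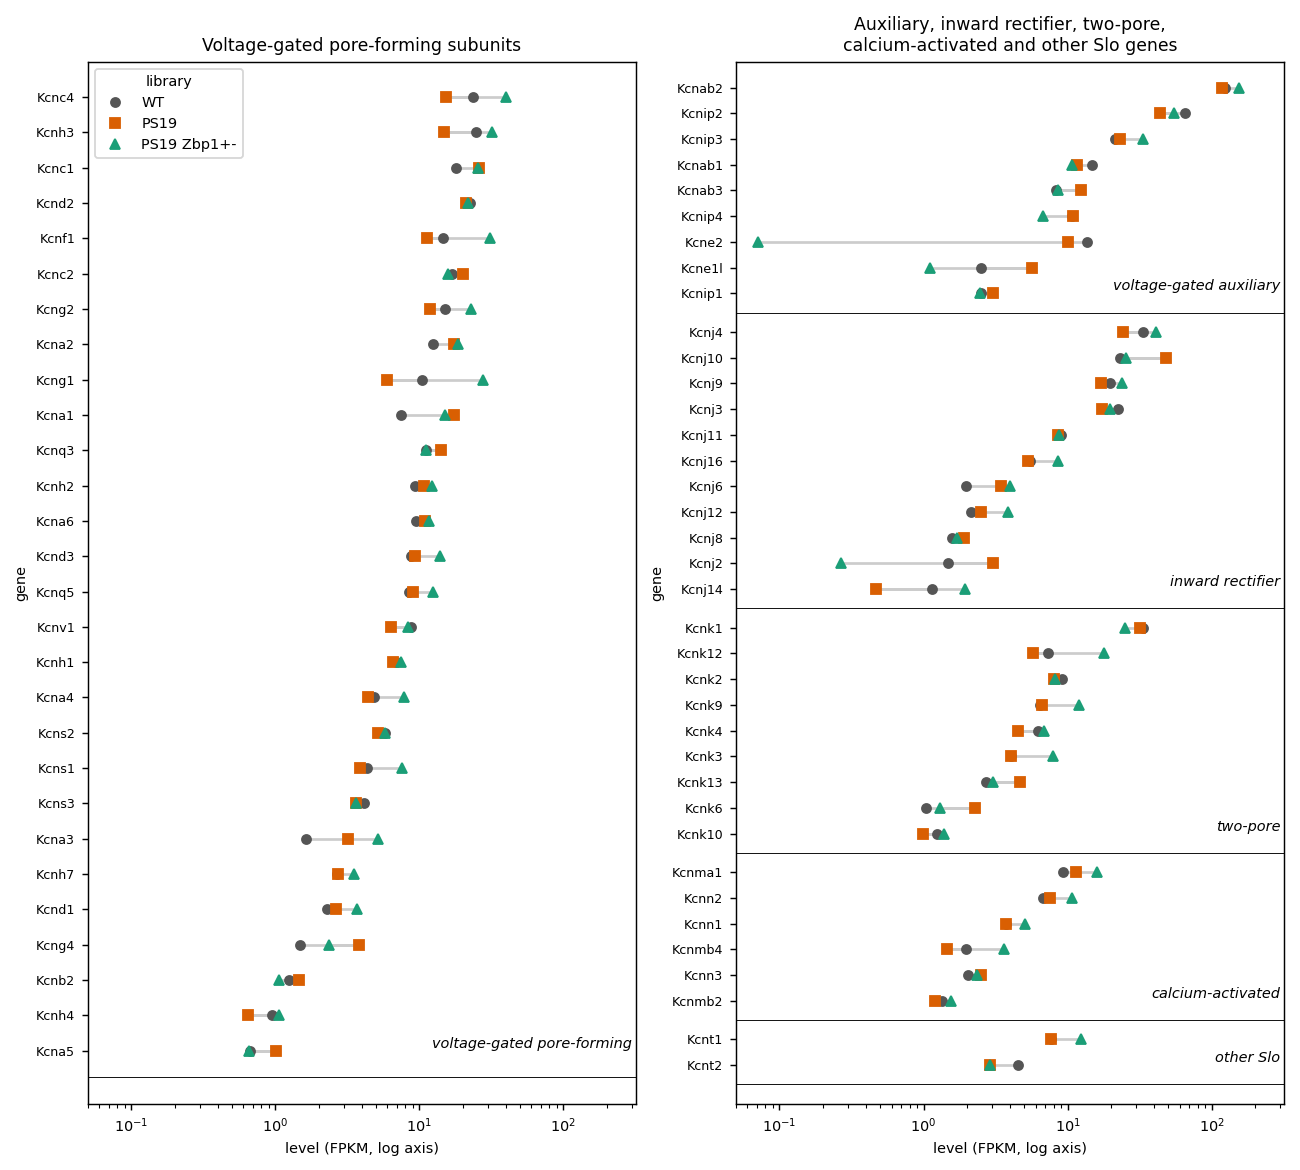
Levels of 65 potassium channel genes that reached an FPKM of 1, 1 symbol per library (grey circle WT, orange square PS19, green triangle PS19 Zbp1+-), on a log axis in FPKM, with genes ordered by mean level within each class. Kcne2 spans the widest range, from 13.5 in WT to 0.0715 in PS19 Zbp1+-, and Kcng1 is lowest in PS19 (5.94) and highest in PS19 Zbp1+- (27.8).

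The differences were taken as log2(FPKM + 1) in one library minus the other, over genes that reached an FPKM of 1 in either, a scale that understates the change of weakly expressed genes. Between PS19 and WT, 68 members entered. Their median difference was 0.01, against -0.03 over all 12703 protein-coding genes that entered. Of the members, 2 (Kcna1 and Kcnj10) exceeded WT by 2-fold or more in PS19 and 0 lay as far below it, where 2.2% and 0.291% of all genes were. With 1.5-fold as the limit 8 were higher and 2 lower, beside 6.34% and 2.71% of all genes. Of the 68, 36 lay above 0, beside 46.3% of all genes.

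Between PS19 Zbp1+- and PS19, 69 members entered, with a median difference of 0.26, against 0.04 over all 12772 genes. At least 2-fold higher in PS19 Zbp1+- were 5 members (Kcng1, Kcnk12, Kcnf1, Kcnc4 and Kcnh3), beside 2% of all genes, and at least 2-fold lower 3 (Kcne2, Kcnj2 and Kcne1l), beside 5.16%. At 1.5-fold 17 were higher and 5 lower, beside 9.37% and 12.1% of all genes. This split depended on scaling. Scaled by total reads, 11 members were higher and 9 lower, beside 5.01% and 16.9% of all genes, and in TPM 11 and 14, beside 4.70% and 25.6%, with the median over all genes at -0.12 and -0.23 under these scalings. Of the 69, 48 lay above 0, beside 53.7% of all genes. The members' median exceeded that of all genes by 0.22 as deposited, by 0.24 with total reads and by 0.30 with TPM. Of the 69 genes, 40 had their highest level in PS19 Zbp1+-, 18 in PS19 and 11 in WT, where 40.1%, 30.6% and 29.3% of all genes did. The lowest level was in PS19 Zbp1+- for 11 of them, in PS19 for 30 and in WT for 28, beside 36.2%, 37.7% and 26.1% of all genes.

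Between PS19 Zbp1+- and WT, 68 members entered, with a median of 0.29, against 0.01 over all 12436 genes. At 2-fold 4 members were higher (Kcng1, Kcna3, Kcnk12 and Kcnf1), beside 1.07% of all genes, and 1 was lower (Kcne2), beside 2.28%. At 1.5-fold 20 were higher and 4 lower, beside 6.71% and 7.12%. With total reads the numbers were 11 and 5, beside 3.92% and 10.9% of all genes, and with TPM 15 and 6, beside 5.44% and 14.7%. Of the 68, 50 lay above 0, beside 51% of all genes. All 3 comparisons share libraries in pairs, so that PS19 or WT enters more than 1 of them and their values are not independent.

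**Figure D2:**
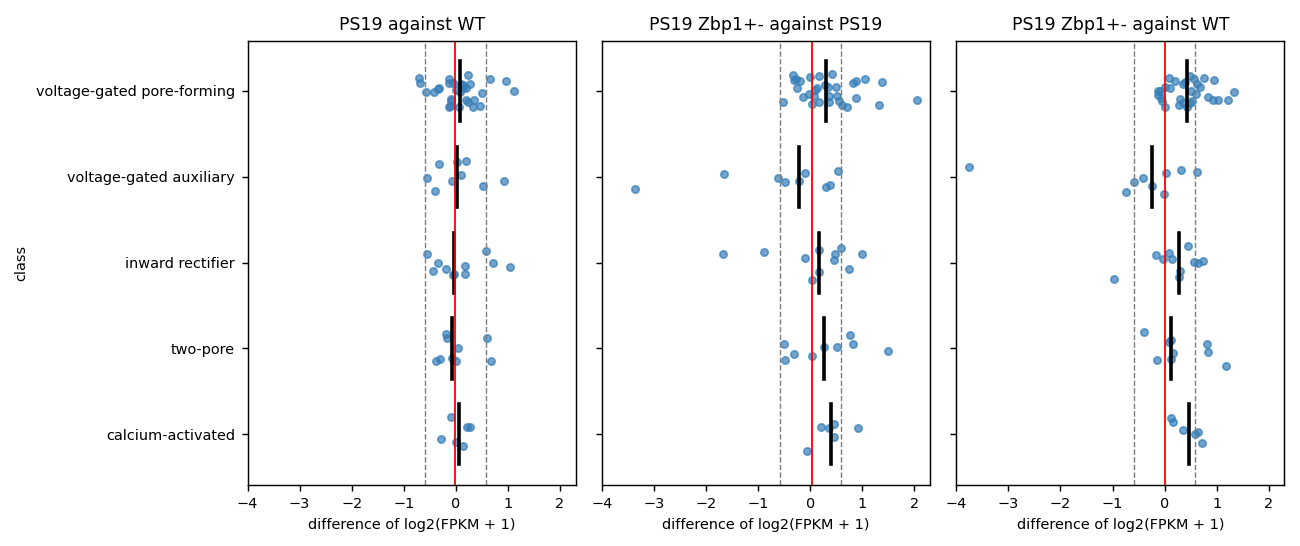
Difference of log2(FPKM + 1) for each member (blue points) by class, in 1 panel per pair of libraries; black bars are class medians, the red line is the median of all protein-coding genes and the dashed lines mark a 1.5-fold difference. Between PS19 and WT the class medians sit within 0.1 of the red line, and in both comparisons of PS19 Zbp1+- the auxiliary class lies left of it (medians -0.21 and -0.24) while the other 4 classes lie right of it.

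By class, the median difference between PS19 and WT was 0.07 for 31 voltage-gated pore-forming genes, 0.01 for 9 auxiliary genes, -0.04 for 11 inward rectifiers, -0.08 for 9 two-pore channels and 0.06 for 6 calcium-activated subunits. Under TPM the inward rectifier and two-pore medians turned to 0.08 and 0.05, and corrected for GC content and length the pore-forming median turned to -0.04 and the inward rectifier median to 0.01. The auxiliary median turned to -0.07 with a mean FPKM of at least 5, and the calcium-activated median to -0.006 without a filter. Over all members together, the median of 0.007 turned to -0.06 with that minimum of 5 and to -0.02 with the GC and length correction. Between PS19 Zbp1+- and PS19 the medians were 0.31 for 32 pore-forming genes, -0.21 for 9 auxiliary genes, 0.17 for 11 inward rectifiers, 0.26 for 9 two-pore channels and 0.40 for 6 calcium-activated subunits. Of these the inward rectifier median turned to -0.07 under TPM. With 1.5-fold as the limit, PS19 Zbp1+- exceeded PS19 in 9 of 32 pore-forming genes and lay 1.5-fold below it in 0, while 9.37% of all genes were higher and 12.1% lower by this limit. The auxiliary class had 0 of 9 higher and 3 lower, the inward rectifiers 3 higher and 2 lower, the two-pore channels 3 higher and 0 lower, and the calcium-activated class 1 higher and 0 lower. Whether the classes differ from each other was not tested, since each comparison rests on 2 libraries.

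Kv1 channels sit in axons and at juxtaparanodes beside nodes of Ranvier, where they limit repetitive firing. Kcna1 encodes Kv1.1 (chromosome 6, 126640397 to 126646384). Its FPKM was 7.48, 17.4 and 15.2, from 617, 1442 and 1149 reads. WT was thus low and both PS19 libraries high. Per library size the reads of PS19 were 2.33-fold those of WT (exact 95% interval 2.12 to 2.57), and those of PS19 Zbp1+- were 2.03-fold (1.84 to 2.24). Kcna2, the Kv1.2 subunit that joins Kv1.1 in axons, had 12.5, 17.5 and 18.4, again with WT lowest. Kcna3, the Kv1.3 subunit also known from lymphocytes and microglia, was weaker, with 1.65, 3.19 and 5.18 from 54, 105 and 156 reads. Its read ratio to WT was 1.94 in PS19 (1.38 to 2.75) and 3.15 in PS19 Zbp1+- (2.3 to 4.38). Kcna4, which gives rapidly inactivating Kv1 current, had 4.83, 4.40 and 7.80 and was highest in PS19 Zbp1+-. Kcna6 had 9.50, 11 and 11.7, but 39.6% of its exon bases are shared with a gene on the opposite strand. The beta subunit Kcnab1 went the other way, with 14.8, 11.6 and 10.8, a read ratio of 0.731 (0.683 to 0.781) for PS19 Zbp1+- over WT. The third beta subunit, Kcnab3, was highest in PS19 (8.36, 12.4 and 8.56).

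Oligodendrocyte markers differed between the libraries in which Kv1 subunits were measured. Mbp, Mog, Mag and Cnp summed to 428, 752 and 305 FPKM, with 4 of 4 higher in PS19 than in WT and 4 of 4 lower in PS19 Zbp1+- than in PS19. The part of oligodendrocytes in the Kv1 values was not tested. The read ratios of PS19 Zbp1+- to PS19 were 0.87 (0.805 to 0.941) for Kcna1 and 1.05 (1 to 1.1) for Kcna2. Scaled by total reads both would be lower, and that of Kcna2 below 1. In bulk tissue, fewer cells of a type and less RNA per cell cannot be told apart.

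Kv2 and Kv3 channels repolarise neurons. Kcnb2, a delayed rectifier subunit, was near the filter, with an FPKM of 1.25, 1.47 and 1.06. Kv3 channels open fast and close fast and allow interneurons to fire at high rates. Kcnc1, the Kv3.1 subunit of parvalbumin cells, had 17.9, 25.9 and 25.4. Both PS19 libraries were above WT, at 1.44-fold (1.38 to 1.51) and 1.42-fold (1.35 to 1.49) in reads. Kcnc2 had 17, 20.2 and 15.9, highest in PS19. Kcnc4, the Kv3.4 subunit of axon terminals, was lowest in PS19, with 23.5, 15.4 and 40.2. Its reads in PS19 Zbp1+- were 2.61-fold those of PS19 (2.42 to 2.81), and those of PS19 were 0.657-fold those of WT (0.606 to 0.713). Interneuron markers (Gad1, Gad2, Slc32a1, Pvalb and Sst) summed to 453, 358 and 400 FPKM. Of these 5 genes 4 were higher in PS19 than in WT, and the lower sum came from Sst, with 315, 201 and 257. From PS19 to PS19 Zbp1+- 2 were higher and 3 lower, and their part in the Kv3 values was not tested.

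Kv4 channels carry the dendritic A-type current, and their KChIP partners (Kcnip genes) set their surface number and kinetics. Kcnd2, the main Kv4 subunit of pyramidal dendrites, was level across the libraries as deposited, at 22.6, 21.2 and 21.7 FPKM. Its read ratios were 0.939 (0.881 to 1) for PS19 over WT and 1.02 (0.959 to 1.09) for PS19 Zbp1+- over PS19. Scaled by total reads, the latter would be below 1. Kcnd3 had 8.71, 9.39 and 13.9, and the X-linked Kcnd1 had 210, 241 and 308 reads. Kcnip2 was lowest in PS19, at a read ratio of 0.677 to WT (0.644 to 0.711). Kcnip1 had 269, 326 and 244 reads, highest in PS19. Kcnip3, also known as a calcium-dependent transcriptional repressor, was highest in PS19 Zbp1+- (21.5, 22.9 and 33.4). Kcnip4 was lowest there, with 10.8, 10.9 and 6.79 and a read ratio of 0.623 to PS19 (0.549 to 0.706). Corrected for GC content and length, its difference was -0.39 in place of -0.61. The Kv4 partners Dpp6 and Dpp10 had 26.5, 24.5 and 34.4, and 3.67, 3.12 and 3.44.

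The electrically silent subunits (Kcnf1 and the Kcng, Kcns and Kcnv genes) form no channel alone but join Kv2 subunits and change their gating. They held the widest range among the voltage-gated pore genes. Kcng1 encodes Kv6.1 (chromosome 2, 168260117 to 168281736). Its FPKM was 10.4, 5.94 and 27.8, from 809, 463 and 1983 reads. PS19 was low and PS19 Zbp1+- high. The read ratio was 0.571 (0.508 to 0.641) for PS19 over WT, 4.68 (4.23 to 5.19) for PS19 Zbp1+- over PS19 and 2.67 (2.46 to 2.9) for PS19 Zbp1+- over WT. Kcnf1, the Kv5.1 subunit (chromosome 12, 17172100 to 17176888), had 14.7, 11.3 and 31, with reads in PS19 Zbp1+- 2.75-fold those of PS19 (2.55 to 2.97). Kcng2 followed the same order at 15.1, 11.9 and 22.9, as did Kcns1 at 4.36, 3.88 and 7.57. Kcng4 differed: its FPKM was 1.49, 3.83 and 2.37 from 98, 252 and 143 reads, highest in PS19, at 2.57-fold the reads of WT (2.02 to 3.27). Kcns2, Kcns3 and Kcnv1 stayed within 1.5-fold in every pair. Of the 10 silent subunits, 8 entered the comparison of PS19 Zbp1+- with PS19, with a median of 0.58 and 4 at least 1.5-fold higher, beside 9.37% of all genes. Their summed FPKM was 65, 52.5 and 110, so that PS19 Zbp1+- held 2.10-fold the PS19 level as deposited, 1.84-fold with total reads and 1.72-fold with TPM.

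Kv7 channels carry the M-current, which muscarinic input shuts to raise excitability, and EAG-family channels include the Kv12 type. Kcnq3, a subunit of that current, had 11.1, 14.1 and 11.1, with PS19 highest and a ratio of 0.787 (0.748 to 0.828) for PS19 Zbp1+- over PS19. Kcnq5 had 8.55, 9.03 and 12.4, with PS19 Zbp1+- highest. Kcnh3, the forebrain Kv12.2 subunit, had 24.7, 14.9 and 31.9. It was lowest in PS19, at 0.605-fold the reads of WT (0.567 to 0.645), and its reads in PS19 Zbp1+- were 2.14-fold those of PS19 (2.01 to 2.28). Kcnh1 and Kcnh2 lay between 6.53 and 12.2 in all libraries, Kcnh7 had 709, 713 and 850 reads, and 3 of the 8 EAG genes (Kcnh5, Kcnh6 and Kcnh8) did not reach an FPKM of 1.

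Auxiliary subunits of the KCNE type are single-pass membrane proteins that alter the gating of several Kv channels. Kcne2 (chromosome 16, 92292389 to 92298129) is known from the choroid plexus epithelium. Its FPKM was 13.5, 10 and 0.0715, from 413, 306 and 2 reads. The read ratio was 0.739 (0.636 to 0.859) for PS19 over WT and 0.00714 (0.000861 to 0.026) for PS19 Zbp1+- over PS19. The choroid plexus markers Ttr, Folr1, Clic6, Kl, Enpp2 and Aqp1 summed to 3393, 2153 and 25.4 FPKM, and in 6 of 6 the level of PS19 Zbp1+- was below that of PS19 by 2-fold or more. The weakest of them, Aqp1, had 523, 364 and 3 reads. The part of choroid plexus tissue in the Kcne2 value was not tested. Kcne1l (X chromosome, 142304752 to 142306294), the X-linked KCNE5 gene, had 2.52, 5.66 and 1.11 from 67, 151 and 27 reads. It was highest in PS19, at 2.25-fold the reads of WT (1.68 to 3.05), and 0.195-fold in PS19 Zbp1+- relative to PS19 (0.125 to 0.296). Kcne3 and Kcne4 stayed under an FPKM of 1.

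Among inward rectifiers, Kir4.1 (Kcnj10; chromosome 1, 172341210 to 172374085) is the channel by which astrocytes and oligodendrocytes clear extracellular potassium. Its FPKM was 23.1, 48.4 and 25.5, from 2153, 4525 and 2185 reads. PS19 stood above both others. Reads in PS19 were 2.1-fold those of WT (1.99 to 2.21), and those of PS19 Zbp1+- were 0.527-fold those of PS19 (0.501 to 0.555) and 1.11-fold those of WT (1.04 to 1.17). Scaled by total reads, the ratio of PS19 Zbp1+- to WT would be just below 1, and its interval would include equal levels. Kcnj16, the Kir5.1 subunit that pairs with Kir4.1 in glia, was not highest in PS19: it had 5.45, 5.29 and 8.52, highest in PS19 Zbp1+-. Astrocyte markers (Aqp4, Slc1a3, Slc1a2, Gja1 and Aldh1l1) summed to 250, 396 and 270 FPKM, with 5 of 5 higher in PS19 than in WT, 1 of them at least 2-fold, and 5 of 5 lower in PS19 Zbp1+- than in PS19. Their part in the Kcnj10 value, and that of the oligodendrocyte markers, was not tested. Kcnj2 (chromosome 11, 111066164 to 111076821), the classical strong rectifier Kir2.1, had 1.48, 3.04 and 0.267 from 139, 286 and 23 reads. It was likewise highest in PS19, at 2.05-fold WT (1.67 to 2.53), but PS19 Zbp1+- was 0.0878-fold PS19 (0.0548 to 0.134) and 0.18-fold WT (0.111 to 0.282).

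The other strong rectifiers of the Kir2 group had a different order. Kcnj4, the Kir2.3 subunit of forebrain neurons, had 33.6, 24.4 and 41.3, lowest in PS19 and highest in PS19 Zbp1+-, with a read ratio of 1.69 (1.56 to 1.84) between these. Kcnj14 had 1.15, 0.468 and 1.93 from 54, 22 and 83 reads, and Kcnj12 had 2.13, 2.52 and 3.88. G-protein-gated Kir3 channels, opened by GABA-B and adenosine receptors, did not share 1 order. Kcnj3 had 22.3, 17.4 and 19.7 and Kcnj9 19.7, 17.1 and 24, both lowest in PS19, while Kcnj6 had 1.98, 3.43 and 3.97 with WT lowest, at read ratios to WT of 1.73 (1.48 to 2.02) in PS19 and 2 (1.72 to 2.34) in PS19 Zbp1+-. For Kcnj3, 31.1% of the exon bases are shared with a gene on the opposite strand. The pore of the ATP-sensitive channel, Kcnj11, was level as deposited, at 8.97, 8.56 and 8.76, with a read ratio of 0.954 (0.847 to 1.08) for PS19 over WT. Its vascular counterpart Kcnj8 had 1.57, 1.91 and 1.71. Their sulfonylurea receptors Abcc8 and Abcc9 had 4.71, 5 and 5.40, and 0.741, 1.62 and 1.60.

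Two-pore channels differed in which library was highest. Kcnk13 (THIK-1), the main leak channel of microglia, had 2.72, 4.67 and 3.03 FPKM from 146, 251 and 149 reads. Kcnk6 (TWIK-2), described in macrophages and vessels, had 1.05, 2.27 and 1.29 from 75, 163 and 85 reads. Both were highest in PS19, at 1.72-fold (1.39 to 2.12) and 2.17-fold (1.64 to 2.89) the reads of WT, and lower in PS19 Zbp1+- at 0.648-fold (0.526 to 0.797) and 0.57-fold (0.433 to 0.745) those of PS19. Microglial markers (Cx3cr1, P2ry12, Csf1r, Tmem119 and Aif1) summed to 45.9, 99.6 and 54.7 FPKM, with 4 of 5 higher in PS19 than in WT, 3 of these at least 2-fold, and 5 of 5 lower in PS19 Zbp1+- than in PS19. Their part in these values was not tested. Kcnk12 (THIK-2; chromosome 17, 87745837 to 87797994), the close relative of Kcnk13, ran differently, with 7.36, 5.77 and 18 from 246, 193 and 552 reads. PS19 Zbp1+- was 3.12-fold PS19 (2.65 to 3.7) and 2.45-fold WT (2.1 to 2.85). The TASK channels Kcnk3 and Kcnk9, acid-sensitive leak channels of neurons, had 4.02, 4.06 and 7.91, and 6.43, 6.70 and 12. WT and PS19 were alike for both, and PS19 Zbp1+- was 1.95-fold (1.68 to 2.27) and 1.79-fold (1.67 to 1.91) PS19. In the mechanically gated TREK group Kcnk2 had 9.22, 8 and 8.23, Kcnk4 6.25, 4.55 and 6.89, and Kcnk10 1.24, 0.989 and 1.38. Kcnk2 had a read ratio of PS19 Zbp1+- to PS19 of 1.03 (0.922 to 1.15), where Kcnk4 had 1.51 (1.21 to 1.9) and Kcnk10 1.4 (1.12 to 1.74). Kcnk1 (TWIK-1), the two-pore gene with the highest level, had 33.4, 31.6 and 25.1 and was lowest in PS19 Zbp1+-, at 0.794-fold PS19 (0.728 to 0.867).

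**Figure D3:**
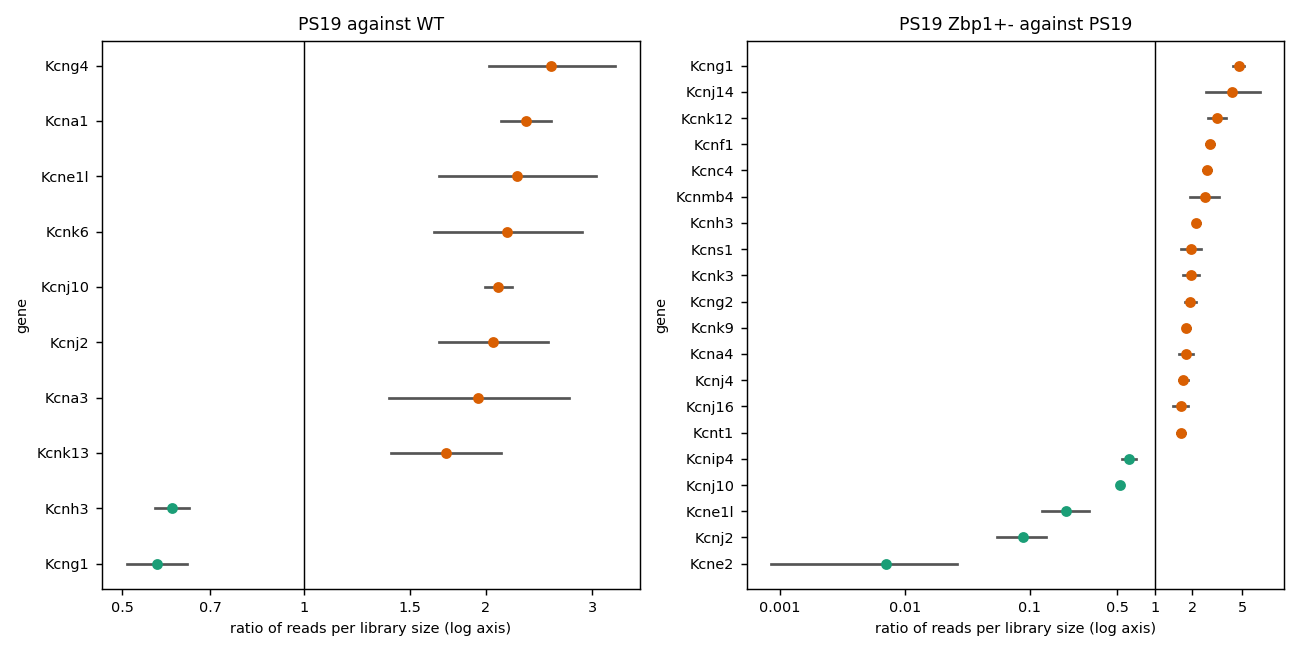
Ratio of reads per library size for named members at least 1.5-fold apart on the log2(FPKM + 1) scale, PS19 against WT on the left and PS19 Zbp1+- against PS19 on the right, on log axes of different range; points are ratios (orange above 1, green below) and lines are exact 95% intervals, which cover counting error only. Kcng4, Kcna1 and Kcne1l lie at 2.57, 2.33 and 2.25 on the left, and on the right the 5 lower genes reach from Kcnip4 at 0.623 down to Kcne2 at 0.00714.

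The sequences before the annotated starts of 4 members with these opposite orders are printed to show what lies upstream of them: Kcnj10 and Kcnj2, highest in PS19, and Kcnf1 and Kcnk12, highest in PS19 Zbp1+-. Each is the 250 bases before a RefSeq start on GRCm38.p6, read 5' to 3' along the gene's strand, with the GC box, GGGCGG on either strand, in capitals. Kcnj10 lies at chr1:172340960-172341209 (plus strand), Kcnj2 at chr11:111065914-111066163 (plus), Kcnf1 at chr12:17176889-17177138 (minus) and Kcnk12 at chr17:87797995-87798244 (minus).
Kcnj10: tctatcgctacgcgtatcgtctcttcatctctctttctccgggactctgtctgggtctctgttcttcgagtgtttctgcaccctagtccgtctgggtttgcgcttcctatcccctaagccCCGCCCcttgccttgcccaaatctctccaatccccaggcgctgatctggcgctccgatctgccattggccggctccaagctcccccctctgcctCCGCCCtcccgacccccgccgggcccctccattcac
Kcnj2: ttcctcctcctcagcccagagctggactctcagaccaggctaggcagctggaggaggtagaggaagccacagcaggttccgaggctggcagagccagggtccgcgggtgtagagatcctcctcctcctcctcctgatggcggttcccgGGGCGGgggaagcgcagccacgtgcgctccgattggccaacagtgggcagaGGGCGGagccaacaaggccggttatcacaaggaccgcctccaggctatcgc
Kcnf1: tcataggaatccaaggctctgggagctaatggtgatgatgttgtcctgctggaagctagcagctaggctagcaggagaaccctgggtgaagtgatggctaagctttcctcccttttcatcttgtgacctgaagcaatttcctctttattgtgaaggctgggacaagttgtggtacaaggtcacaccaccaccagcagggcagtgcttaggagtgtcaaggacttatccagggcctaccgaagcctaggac
Kcnk12: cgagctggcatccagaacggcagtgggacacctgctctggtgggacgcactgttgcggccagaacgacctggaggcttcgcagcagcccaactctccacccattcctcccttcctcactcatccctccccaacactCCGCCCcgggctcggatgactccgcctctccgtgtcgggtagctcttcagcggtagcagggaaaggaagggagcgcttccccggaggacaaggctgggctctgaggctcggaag
Kcnj10 and Kcnj2 held 2 GC boxes each, Kcnk12 held 1 and Kcnf1 none. Their GC content was 62%, 65.6%, 64.8% and 51.2% for Kcnj10, Kcnj2, Kcnk12 and Kcnf1. Over the starts listed for 68 of the members, 42 of 93 windows held a GC box, or 45.2%, against 32.7% of 32817 windows of all genes. The TATA box, TATAAA on either strand, was in 2 of the 93, or 2.15%, against 12.4% of all. Of the other motifs searched, CCAAT was in 28.0% against 33.8% and CACGTG in 6.45% against 6.02%. TTCNNNGAA (N any base) was in 7.53% against 7.01%, and TGACGTCA in 0% against 1.55%. The median GC content was 58.8% over the members' windows and 52.4% over all, and its part in these shares was not tested. A letter match is a description of the window and says nothing of a factor's binding.

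Calcium-activated channels link calcium entry to the after-hyperpolarisation. Kcnma1 (chromosome 14, 23289431 to 24014491) encodes the BK pore. Its FPKM was 9.31, 11.5 and 16, from 2728, 3368 and 4311 reads. PS19 Zbp1+- was 1.72-fold WT (1.64 to 1.81) and 1.4-fold PS19 (1.34 to 1.46). Kcnmb4, the neuronal BK beta subunit, was lowest in PS19, with 1.97, 1.44 and 3.61 from 113, 83 and 190 reads. PS19 Zbp1+- was 2.5-fold PS19 (1.92 to 3.28). Of the other beta subunits only Kcnmb2 reached an FPKM of 1, with 72, 65 and 77 reads. For Kcnmb4, 31.5% of the exon bases are shared with the antisense genes Kcnmb4os1 and Kcnmb4os2, and whether the counting used strand is not given in the sources used here. Exons are also shared with opposite-strand genes for 12.2% of the bases of Kcnk2, 9.1% of Kcng2, 8.13% of Kcnn2, 8.01% of Kcnk1 and 7.36% of Kcnip4. A same-strand gene shares 13.1% of Kcnk4. Exon bases are those of GENCODE M21, 4465 for Kcnk4 and 7468 for Kcnn2, whose deposited lengths are 1715 and 7321. For Kcnk4 the share within the counted exons is therefore not known. The small-conductance channels Kcnn1, Kcnn2 and Kcnn3 had 3.75, 3.73 and 5.04, then 6.78, 7.53 and 10.7, then 2.03, 2.51 and 2.37. Of these Kcnn2, the main SK subunit of CA1 neurons, had reads in PS19 Zbp1+- that were 1.42-fold those of PS19 (1.31 to 1.55). Kcnn4, the intermediate-conductance channel of microglia and lymphocytes, had 14, 7 and 3 reads and stayed under an FPKM of 0.2. Of the sodium-activated Slo channels, Kcnt1 had 7.71, 7.72 and 12.4 with reads in PS19 Zbp1+- at 1.61-fold those of PS19 (1.5 to 1.73), whereas Kcnt2 had 4.5, 2.89 and 2.90, with WT highest.

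The 32 partner genes hold subunits, anchors and transporters that act with these channels. Of 31 that entered the comparison of PS19 with WT, 7 were at least 1.5-fold higher and 0 lower, with a median of 0.08. Of 31 between PS19 Zbp1+- and PS19, 5 were at least 1.5-fold lower, with a median of 0.05. Cntn2, an adhesion protein that anchors Kv1 channels at juxtaparanodes, had 14.8, 26.2 and 15.4 FPKM. Aqp4, the astrocytic water channel found beside Kir4.1, had 22.2, 62.2 and 17, highest in PS19 as Kcnj10 was. Slc12a2, a chloride importer also strong in choroid plexus, had 20.9, 28.8 and 8.23.

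The difference between PS19 Zbp1+- and PS19 was set beside the GC content of the genes. The 69 genes had a median GC content of 53.3% in their longest transcript, against 50.1% over all genes that reached an FPKM of 1. In 5 groups of genes from lowest to highest GC content, the median difference of all genes was -0.14, -0.03, 0.07, 0.13 and 0.25, and that of the members 0.09, 0.05, 0.04, 0.34 and 0.48. The medians of all genes thus increased at each step, and those of the members were highest in the last 2 groups. The members' median lay below that of all genes only in the middle group. Of the members, 22 of 69 lay in the group with the most GC. After subtracting the median of genes of like GC content and length, a choice made after the data were seen, 12 members were at least 1.5-fold higher and 5 lower, beside 7.60% and 12.4% of all genes so corrected, and the median was 0.21. Kcng1, Kcnk12, Kcnf1 and Kcnc4 then had differences of 1.85, 1.32, 1.27 and 1.04, and Kcnh3 had 0.74 in place of 1.05. Between PS19 Zbp1+- and WT the same correction left 11 higher and 3 lower, beside 4.51% and 6.05% of all genes, and a median of 0.12. Summed levels of the 5 general neuronal markers and of the excitatory markers were also highest in PS19 Zbp1+-. The excitatory markers Slc17a7, Camk2a, Neurod6 and Grin2a summed to 634, 585 and 902 FPKM. Of these, 4 of 4 were higher in PS19 Zbp1+- than in PS19 and 3 of 4 higher than in WT. Of the general markers 5 of 5 and 4 of 5 were. The interneuron sum was highest in WT, at 453, 358 and 400 FPKM. The part of these markers in the members' differences was not tested.

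**Figure D4:**
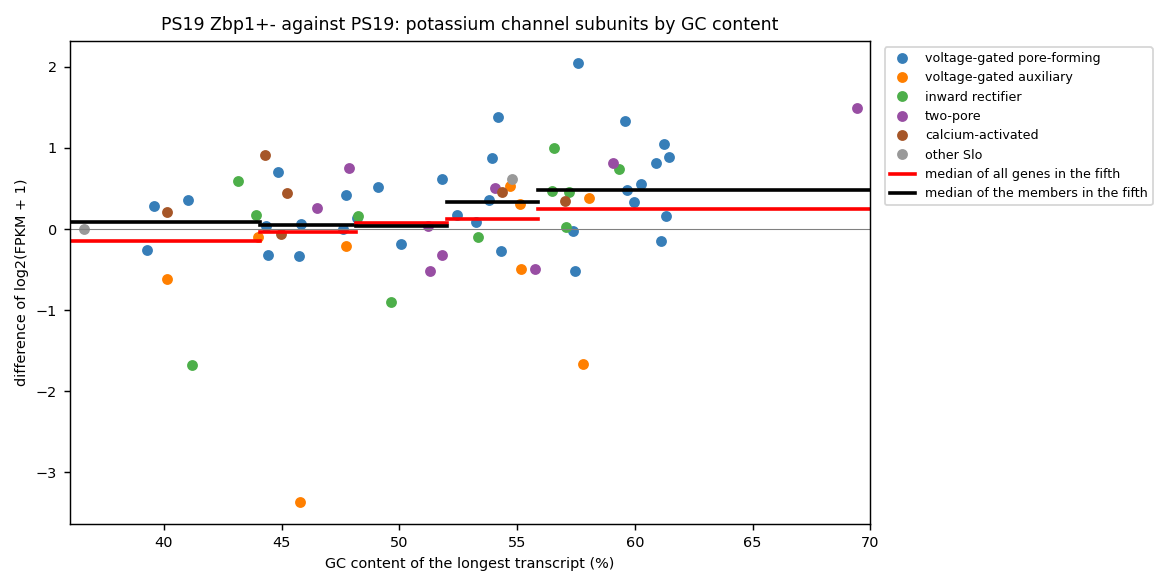
Difference of log2(FPKM + 1) between PS19 Zbp1+- and PS19 for each of 69 members (points, coloured by class) against the GC content of its longest transcript in percent; red bars are medians of all protein-coding genes in each of 5 groups by GC content, and black bars those of the members. Both bars are highest in the group with the most GC (0.25 and 0.48), and Kcne2 is the lowest point.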

How the data were processed

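The authors deposited 1 table of FPKM values with 1 column per library, beside gene annotation. The submitters' processing notes name Trim Galore 0.6.5, STAR 2.5.3a, featureCounts 2.0.4 and the build mm39, with no role or order; annotation and strandedness are not given in the sources used here. Gene positions in the table equal those of GENCODE M21 (GRCm38) for 98.3% of the genes found there, and for 89 of the 93 members, and are given as the table holds them. Multiplied by gene length, 100% of the values came out as whole reads (within 0.01 of a read), with implied library sizes of 17253479, 17287957 and 15826984 in WT, PS19 and PS19 Zbp1+-.

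Differences of log2(FPKM + 1), a pseudocount of 1, covered the protein-coding genes that reached an FPKM of 1 in 1 library of the pair. Read ratios per implied library size carry exact (Clopper-Pearson) 95% intervals, not adjusted for the number of genes. Scaled by total reads or TPM, those of PS19 Zbp1+- to either other library would be lower. The genes named were the 3 highest of each class, up to 8 members per direction past 1.5-fold in each pair, and the members of 18 functional subfamilies; Kcna5, Kcnab3, Kcnd1, Kcne1, Kcne3, Kcne4, Kcnj1 and Kcnk16 were added after their values were seen. Members and lists were chosen with earlier results of these data known. GC content was that of each gene's longest transcript in GENCODE M21, and promoter windows from RefSeq (GRCm38.p6), with duplicate starts removed. Some genes of the lists are counted in the totals but not reported here by name, and the oligodendrocyte and microglial sums cover the markers named. The procedure was tested on simulated data with counting error only, without the loss of weakly expressed genes seen in PS19 Zbp1+-. Results were also computed in 5 other ways: a pseudocount of 0.1, no filter, a mean FPKM of at least 5, TPM and total reads, and in the 2 ways chosen later that the closing section names. Software was Python 3.11.15 with scipy 1.17.1, pandas 2.3.3, numpy 2.4.6 and, for figures, matplotlib 3.10.9.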

Additional observations from a re-analysis of the deposited data

Results flagged for a closer look

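Genes with Kcn symbols outside the protein-coding set entered no comparison above. There are 5, all antisense transcripts. One of them, Kcnmb4os2 (chromosome 10, 116473163 to 116475319, plus strand), stood above its WT level beyond counting error in PS19 Zbp1+- at the implied library sizes. Reads numbered 64 for WT, 31 for PS19 and 87 for PS19 Zbp1+-, a read ratio of 1.48 (exact 95% interval 1.06 to 2.08) between the last and WT. With total reads or TPM, ratios of PS19 Zbp1+- to WT are lower (for the sum of all 93 members 1.13 with either, in place of 1.26). So scaled, the interval of Kcnmb4os2 would include equal levels. Kcnmb4os2 overlaps Kcnmb4, which had its lowest and highest level in the same libraries, and without a stated strand their reads cannot be told apart.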

How the results depend on the processing

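No paired analysis was possible because each genotype has 1 library, and for the same reason no library could be left out. Few reads limit what can be said of the members under an FPKM of 1, 24 of 93. Weakly expressed genes more often had no read in PS19 Zbp1+-, although that library had the most recovered reads, 17109734. The cause of this was not tested. Of the differences past 1.5-fold, none changed direction under any of the 7 alternatives, 2 of which (GC and length, and centring on the median of all genes) were chosen after the data were seen. Counts and medians moved as follows, and apart from the filters, which change the genes entered, the cause was not tested. For the 2-fold counts below, the share of all genes under the same setting is not given here. Of the values of single genes, 245 moved beyond their counting interval and 1120 did not.

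PS19 against WT: at 2-fold, 5 members were higher with a pseudocount of 0.1 and 6 with TPM, and 1 was lower with a pseudocount of 0.1. At 1.5-fold, 2 of 45 were higher with a mean FPKM of at least 5, beside 3.79% of all genes. Lower with a pseudocount of 0.1 were 5, beside 4.46% of all genes. The two-pore median was 0.047 with TPM.

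PS19 Zbp1+- against PS19: at 2-fold, 1 member was lower with a mean FPKM of at least 5. At 1.5-fold, 11 were higher with TPM and with total reads, beside 4.70% and 5.01% of all genes. With a pseudocount of 0.1, a mean FPKM of at least 5, TPM and total reads, 8, 3, 14 and 9 were lower. Of all genes, 16.4%, 6.81%, 25.6% and 16.9% were lower under these settings. The median of all members was 0.35 with a pseudocount of 0.1 and 0.38 with a mean of at least 5. TPM gave 0.10 for pore-forming, -0.52 for auxiliary, -0.070 for inward rectifier and 0.17 for calcium-activated genes, and total reads gave 0.018 for inward rectifiers and 0.24 for the calcium-activated class. The two-pore median was 0.63 with a mean of at least 5, and the calcium-activated median 0.21 without a filter.

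PS19 Zbp1+- against WT: at 2-fold, 3 members were lower with a pseudocount of 0.1 and with TPM, and 2 with total reads. At 1.5-fold, 11 were higher with total reads and after GC and length correction, beside 3.92% and 4.51% of all genes. Lower with a mean of at least 5 were 2 of 45, beside 5.19% of all genes. The median of all members was 0.14 without a filter, 0.15 with TPM, 0.15 with total reads and 0.12 after GC and length correction. That of auxiliary genes was -0.012, -0.40 and -0.40 under the first 3 of these, and that of inward rectifiers 0.11, 0.12, 0.12 and 0.10 under all 4. Two-pore genes had 0.46 with a mean of at least 5, and calcium-activated genes 0.15 without a filter.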
